A study of Rattus norvegicus with 15 samples.

Results

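The transcripts examined were those of the energy sensor AMPK, of the kinase Akt and of the kinase mTOR in the multifidus, a deep muscle of the back, of rats after spinal surgery. They were the 10 genes Prkaa1, Prkaa2, Prkab1, Prkab2, Prkag1, Prkag2, Prkag3, Akt1, Akt2 and Mtor, taken by symbol from the 37991 genes of the expression table. Each symbol matched 1 gene, and all 10 were among the 17201 genes with enough counts to be tested.

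RNA was sequenced in 15 libraries of wild type, male Sprague Dawley rats aged 12 weeks. Control rats (n = 2) had no injury. The other groups all had a hemilaminectomy with ligation of the left spinal nerve at L5, a model that joins damage to the muscle with loss of its nerve supply. Surgery rats (n = 2) were left untreated. pMT rats (n = 4) received mitochondria isolated from the plasma of human volunteers, 25 µg in 100 µL at each of the injection sites and 50 µg in total, on day 14, with collection on day 28. VitD rats (n = 3) received cholecalciferol, 150 µg per site and 300 µg in total, and pMT/VitD rats (n = 4) received both agents at these doses. The sources used here give the days for the untreated and pMT rats only, and do not say whether each library came from a separate rat, so p-values measure the spread between libraries. The study followed AMPK and Akt as proteins in this muscle, and the comparisons below ask whether the transcripts behind them differed between its groups.

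AMPK is a trimer of a catalytic α subunit (Prkaa1 or Prkaa2), a β subunit that holds the complex together and binds glycogen (Prkab1 or Prkab2) and a γ subunit that binds AMP, ADP and ATP (Prkag1, Prkag2 or Prkag3). It is switched on when cellular energy falls and favours glucose uptake, fat oxidation and mitochondrial renewal. Akt carries the signal of insulin and growth factors, and mTOR, in its complexes mTORC1 and mTORC2, promotes protein synthesis and muscle growth. All of these kinases are controlled mainly by phosphorylation or by binding partners, which RNA levels do not measure.

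Libraries held 52342134 to 73557878 counts, of which 10.7% to 22.6% fell on the 13 genes for proteins encoded in mitochondrial DNA. Prkag2, the member with the fewest reads, had at least 203 counts in every library. Levels between libraries are given as CPM, read counts relative to library size after TMM scaling, with factors of 0.849 to 1.198. Muscle fibre markers summed to at least 106091 TPM, a measure of relative abundance that allows for transcript length, in every library, and B and plasma cell markers to at most 4.47 TPM, with up to 2 of those 6 genes at 0. Replicate 4 of pMT and replicate 4 of pMT/VitD stood apart from their groups. Relative gene length, taken as counts per TPM, was set against each gene's deviation from its mean log2 CPM over the 15 libraries. Across genes their rank correlation was 0.02, 0.36 and 0.45 in the other pMT libraries and -0.32 in pMT 4. It was -0.39, -0.39 and -0.17 in the other pMT/VitD libraries and 0.15 in pMT/VitD 4. Each of them lay nearer to the other group in this trend. In the deviation from their own group means across genes, pMT 4 correlated with pMT/VitD 1 (r = 0.83) and pMT/VitD 4 with pMT 2 (r = 0.77), while pMT 4 and pMT/VitD 4 were opposed (r = -0.87). Whether the labels of these libraries are right was not tested, and an exchange would alter every value of pMT and of pMT/VitD. They were kept under their labels, and the results that changed without them are given both ways.

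Per length, in the TPM values of the authors, the α2, β2 and γ3 subunits and Akt2 led their families. Over the 15 libraries mean TPM was 77.5 for Akt2, 48.4 for Akt1, 41.5 for Prkag3, 38.8 for Prkaa2, 31.7 for Prkab2, 23.5 for Prkag1, 17.0 for Prkab1, 6.13 for Mtor, 4.72 for Prkaa1 and 2.84 for Prkag2. Neighbours in this order overlapped in their ranges over libraries, except Prkab1, which stayed above 14.7 TPM, and Mtor, which stayed below 9.16 TPM. Prkaa2 and Prkab2 were the transcripts that varied most among libraries, with a highest CPM 2.64 and 2.82 times the lowest. Prkag1 varied least, at 1.24 times.

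**Figure D1:**
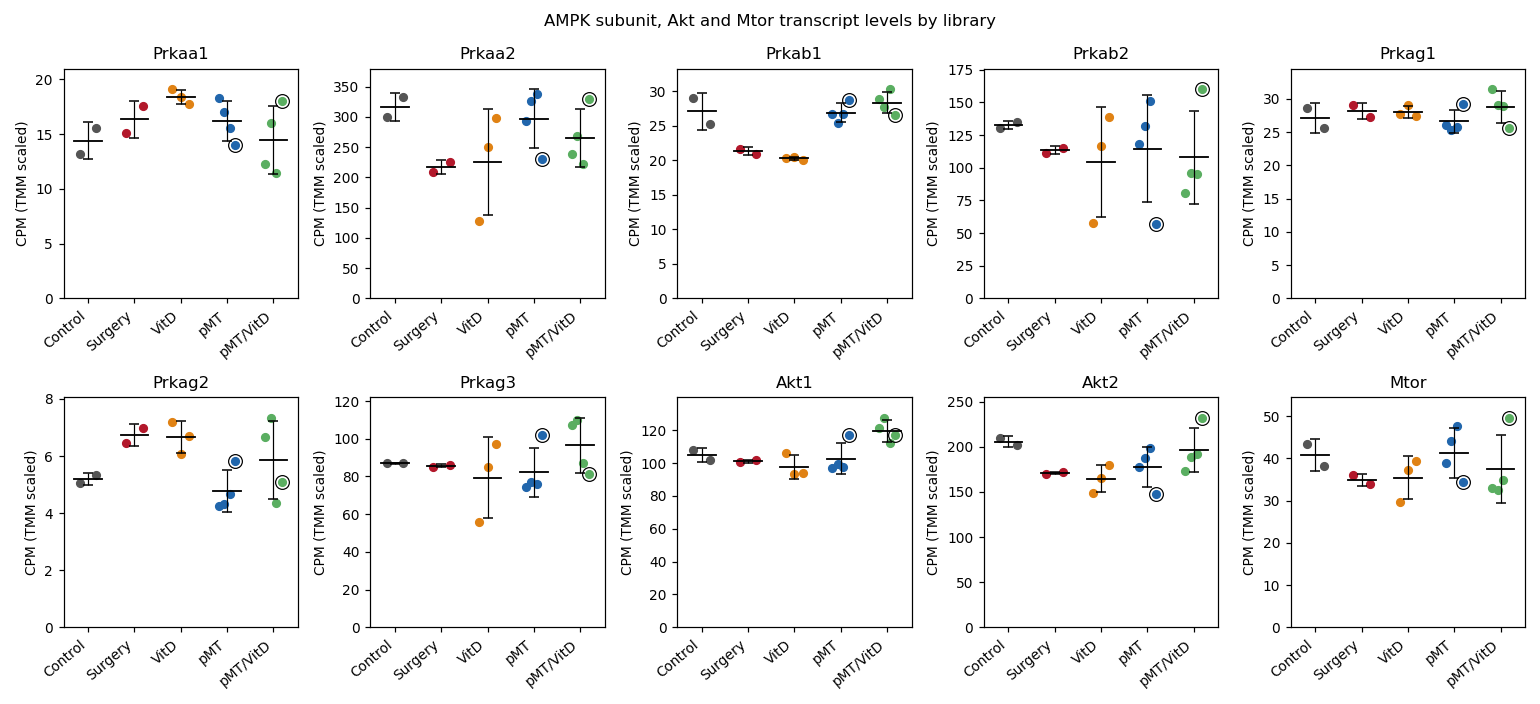
CPM after TMM scaling of the 10 transcripts in each of the 15 libraries, by group; lines are group means, bars are SD, and circled points are replicate 4 of pMT and of pMT/VitD. Prkab1 lies between 20.04 and 21.7 CPM in the 5 Surgery and VitD libraries and between 25.2 and 30.3 CPM in the other 10, while Prkag1 lies between 25.3 and 31.4 CPM in all groups.

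Of the 10 transcripts, 1 differed among the 5 groups, Prkab1 (edgeR quasi-likelihood F-test, adjusted p = 0.00535). Of all genes tested 11.8% did, so a count of 1 in 10 does not set these members apart. Prkab1 was higher in pMT/VitD than in Surgery or VitD, higher in pMT than in VitD and lower in VitD than in Control, and Akt1 was higher in pMT/VitD than in VitD. No member was called between Surgery and Control, where 1.55% of all genes were called, or between pMT and Surgery, where 1.94% were. At an unadjusted p under 0.05 there was 1 member in the former comparison (Prkab1) and there were 2 in the latter (Prkab1 and Prkag2). Of all 17201 genes, 2923 and 2455 reached that level. DESeq2 called Prkab1 in both, with 5.77% and 4.34% of all genes. Limma with sample weights called 4 members in each, with 28.7% and 37.7% of all genes. VitD against Surgery had 0 members called, 0 at an unadjusted p under 0.05 and 0 by DESeq2 or limma. Of all 17201 genes, edgeR and DESeq2 called 0%, limma called 405 and 139 had an unadjusted p under 0.05 in edgeR. The size and calls of these results depended on scaling. Scaling by library size alone moved the median fold change of all genes by 0.27 for Surgery against Control, by -0.33 for pMT/VitD against Surgery and by -0.35 for pMT/VitD against VitD on the log2 scale, and changes below are relative to the median gene.

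**Figure D2:**
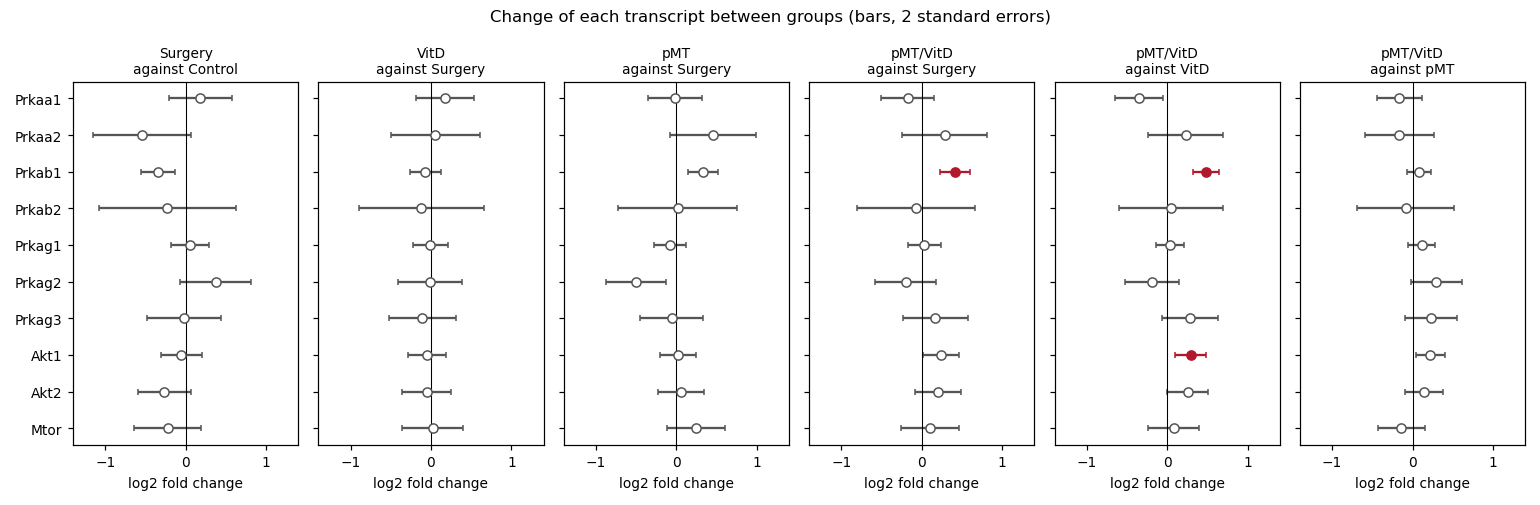
Log2 fold change of each transcript in 6 comparisons from the edgeR quasi-likelihood fit; bars are 2 standard errors and filled red points have an adjusted p under 0.05. Prkab1 stands at 0.41 in pMT/VitD against Surgery and at 0.48 in pMT/VitD against VitD, and Akt1 at 0.29 in the latter; no other point is filled.

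The catalytic subunits did not pass the test in any comparison of the fit of all libraries. Prkaa2 encodes α2, the main catalytic subunit of skeletal muscle. Its level was 299.8 and 332.3 CPM in Control and 209.1 and 225.5 CPM in Surgery. It was 128.1, 250.1 and 298.8 CPM in VitD. It was 293.6, 325.8, 338.5 and 230.7 CPM in pMT and 239.0, 267.9, 222.5 and 330.1 CPM in pMT/VitD. Both Surgery libraries were below both Control libraries and below all 4 pMT libraries, while VitD spread across the range of the other groups. The log2 fold change was -0.54 ± 0.30 (SE) for Surgery against Control (adjusted p = 0.391) and 0.45 ± 0.27 for pMT against Surgery (adjusted p = 0.496). Among alternative fits, 3 of 16 called Prkaa2 in Surgery against Control and 1 of 18 in pMT against Surgery. In the former comparison 1 alternative, edgeR's exactTest, called 5923 of 16316 genes. Prkaa2 is among the longer genes, at the 97.5 percentile of relative length, and its highest CPM was 2.27 times its lowest once each library's trend with gene length was removed.

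Prkaa1 encodes α1, which is expressed in most tissues. It had 13.2 and 15.6 CPM in Control and 15.1 and 17.5 CPM in Surgery. It had 19.1, 18.4 and 17.8 CPM in VitD, against 18.3, 17.0, 15.5 and 13.98 CPM in pMT and 12.2, 16.0, 11.5 and 18.1 CPM in pMT/VitD. The VitD libraries were the closest to each other, above both Surgery libraries and above 3 of the 4 pMT/VitD libraries, with pMT/VitD 4 within their range. The log2 fold change of pMT/VitD against VitD was -0.35 ± 0.15 (adjusted p = 0.104). Without pMT 4 and pMT/VitD 4, Prkaa1 fell by 0.48 in that comparison (adjusted p = 0.0120), where 5499 of 17182 genes were called.

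Prkab1, the β1 subunit, showed the clearest pattern. It was at 29.0 and 25.2 CPM in Control and at 21.7 and 21.0 CPM in Surgery. It was at 20.3, 20.5 and 20.04 CPM in VitD. It was at 26.7, 25.4, 26.7 and 28.7 CPM in pMT and at 28.9, 27.7, 30.3 and 26.6 CPM in pMT/VitD. All 5 Surgery and VitD libraries were below all 10 others, and replicate 4 of either pMT group did not stand apart for this gene. The share of all genes whose libraries separate between groups is not given here. Such separations, for Prkab1 and for the other genes, are therefore descriptions only. Prkab1 was higher in pMT/VitD than in Surgery by 0.41 ± 0.09 on the log2 scale (adjusted p = 0.0200), as 1 of 10 members where 7.44% of all genes tested were called and 2.4% were higher. It was higher in pMT/VitD than in VitD by 0.48 ± 0.08 (adjusted p = 0.00154) and in pMT than in VitD by 0.41 ± 0.08 (adjusted p = 0.00830). In the latter comparison it was again 1 of 10 members, where 8.1% of all genes were called and 2.65% were higher. In VitD it was lower than in Control, with a log2 fold change of -0.42 ± 0.10 (adjusted p = 0.0197), as 1 of 10 members where 8.67% of all genes were called and 3.2% were lower.

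For Prkab1 the difference between Surgery and Control was -0.34 ± 0.11 (adjusted p = 0.113), and that between pMT and Surgery was 0.33 ± 0.09 (adjusted p = 0.0891), so neither passed. VitD and Surgery differed by -0.07 ± 0.10 (interval of 2 SE -0.27 to 0.12). pMT and Control differed by -0.01 ± 0.09 and pMT/VitD and Control by 0.07 ± 0.09. In each of these comparisons edgeR called 0 members and 0% of all genes, 0 members had an unadjusted p under 0.05, and DESeq2 and limma called 0 members. Of 17201 genes, 139, 528 and 496 had an unadjusted p under 0.05, and limma called 405, 231 and 1865, in the order given. With 2 libraries each, the Surgery and Control groups decided several of these calls. Without Surgery 1 the adjusted p of pMT/VitD against Surgery was 0.161, and without Surgery 2 it was 0.224. That of VitD against Control was 0.236 without Control 1, 0.0779 without Control 2 and 0.0509 without VitD 2. Scaled by library size alone, Prkab1 was called nowhere, with a log2 fold change of 0.08 for pMT/VitD against Surgery (adjusted p = 0.630), 0.14 against VitD and 0.24 for pMT against VitD. Without replicate 4 of both pMT groups, pMT/VitD remained higher than Surgery by 0.43 (adjusted p = 0.00579), where 3462 of 17182 genes were called.

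A ratio of transcripts within a library does not depend on scaling. The ratio of Prkab1 to Prkag1 CPM, chosen after the values were seen and given as a description, was 0.986 to 1.01 in Control, 0.748 to 0.768 in Surgery and 0.706 to 0.733 in VitD. It was 0.985 to 1.04 in pMT and 0.920 to 1.05 in pMT/VitD. Of the 9 ratios of Prkab1 to another member, 3 placed all 5 Surgery and VitD libraries below the other 10. In the TPM values the pattern was less clear, with Prkab1 at 16.8 and 16.3 TPM in Surgery and at 14.9, 15.02, 16.8 and 18.7 TPM in pMT/VitD.

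Markers of other cells, summed in TPM, divided the groups along the same lines as Prkab1 in CPM. The summed TPM of 8 macrophage markers was 173 to 196 in Control, 437 to 450 in Surgery and 368 to 613 in VitD, against 110 to 257 in pMT and 104 to 233 in pMT/VitD. All 8 fell in pMT/VitD against Surgery, 6 fell in pMT against VitD and 5 rose in VitD against Control. The summed TPM of 6 fibroblast markers was 1009 to 1063 in Control, 1871 to 1906 in Surgery and 1669 to 2910 in VitD, against 823 to 1439 in pMT and 675 to 1191 in pMT/VitD, and 4 of the 6 fell in pMT/VitD against Surgery. The summed TPM of slow fibre markers was 5073 to 5116 in Surgery and 4810 to 5188 in VitD, against 3100 to 4674 in the other groups. None of these genes was called, and their sum did not stand for each gene. In the fit, 3 of the 6 were higher in pMT/VitD than in Surgery. All 6 were higher in pMT/VitD than in Control (median log2 fold change 0.38), as were 5 in Surgery (median 0.28). In CPM, Prkab1 was low where these sums were high. In TPM, the scale of the sums, it overlapped between groups. It was at 16.3 to 16.8 TPM in Surgery, 15.4 to 16.2 TPM in VitD and 14.9 to 18.7 TPM in pMT/VitD. The part of cell content in its difference was not tested. In whole muscle, fewer cells of a type and less RNA per cell cannot be told apart.

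Prkab2 encodes β2, the leading β subunit of skeletal muscle. It was at 130.6 and 134.9 CPM in Control and at 111.1 and 115.5 CPM in Surgery. It was at 57.6, 117.0 and 138.6 CPM in VitD. It was at 118.4, 132.3, 151.4 and 56.7 CPM in pMT and at 80.8, 96.2, 94.9 and 160.0 CPM in pMT/VitD. Its lowest values were single libraries of VitD and pMT, and pMT/VitD 4 was the highest of all. VitD 1 and pMT 4 also had the lowest sums of fast fibre markers, 47983 and 53127 TPM, and the part of fibre content was not tested. No comparison of Prkab2 passed in the fit of all libraries, with a log2 fold change of -0.23 ± 0.43 for Surgery against Control and 0.02 ± 0.37 for pMT against Surgery. In Surgery against Control 2 of 16 alternative fits called it, where edgeR's exactTest called 5923 of 16316 genes. Without pMT 4 and pMT/VitD 4, the 3 pMT/VitD libraries were below the 3 pMT libraries, and the log2 fold change was -0.56 ± 0.23 (adjusted p = 0.107).

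The γ subunits bind the nucleotides that AMPK senses. Prkag1, the common γ1, was the steadiest member, at 28.7 and 25.5 CPM in Control, 29.0 and 27.3 CPM in Surgery and 27.3 to 29.0 CPM in VitD. It was at 25.3 to 29.1 CPM in pMT and at 25.7 to 31.4 CPM in pMT/VitD. Its widest log2 fold change between groups was 0.11 ± 0.08, for pMT/VitD against pMT, and each interval of 2 SE held 0. Scaled by library size alone, its mean was 31.4 CPM in Surgery and 31.7 CPM in VitD against 25.5 CPM in pMT/VitD. Prkag1 was then called in pMT/VitD against both, where 3248 and 5758 of 17201 genes were called. That scaling moved the median gene by -0.33 and -0.35 on the log2 scale in these comparisons.

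Prkag3, the γ3 subunit of fast glycolytic fibres, was at 87.2 and 86.9 CPM in Control and at 85.2 and 86.2 CPM in Surgery. It was at 55.7, 85.0 and 97.3 CPM in VitD. It was at 74.2, 76.9, 75.9 and 101.8 CPM in pMT and at 107.1, 110.2, 87.2 and 81.2 CPM in pMT/VitD. The groups overlapped and no comparison passed in the fit of all libraries. With all libraries the widest difference was 0.28 ± 0.18 for pMT/VitD against VitD (adjusted p = 0.270), and pMT/VitD against pMT stood at 0.23 ± 0.16. The latter was 0.43 ± 0.16 (adjusted p = 0.0732) without pMT 4 and pMT/VitD 4. Within pMT, replicate 4 was above the other 3, and within pMT/VitD it was below them.

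Prkag2, the γ2 subunit best known from the heart, was the lowest member. It was at 5.0 and 5.3 CPM in Control, at 6.5 and 7.0 CPM in Surgery and at 7.2, 6.1 and 6.7 CPM in VitD. It was at 4.2, 4.3, 4.7 and 5.8 CPM in pMT and at 6.7, 7.3, 4.4 and 5.1 CPM in pMT/VitD. All 4 pMT libraries were below the 5 of Surgery and VitD, while pMT/VitD overlapped every other group. The log2 fold change was -0.50 ± 0.19 for pMT against Surgery (adjusted p = 0.222) and -0.49 ± 0.17 for pMT against VitD (adjusted p = 0.0897). Without pMT 4 and pMT/VitD 4 the latter passed, at -0.61 ± 0.16 (adjusted p = 0.0277), where 2232 of 17182 genes were called. Scaled by library size alone it also passed, at -0.66 ± 0.16 (adjusted p = 0.0173), where 1722 of 17201 genes were called.

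Akt1, the isoform most tied to growth, was at 107.7 and 102.0 CPM in Control and at 100.4 and 101.7 CPM in Surgery. It was at 106.0, 93.2 and 93.8 CPM in VitD. It was at 96.7, 99.3, 97.8 and 117.1 CPM in pMT and at 121.6, 127.2, 112.1 and 117.1 CPM in pMT/VitD. All 4 pMT/VitD libraries were above every library of Control, Surgery and VitD and above 3 of the 4 pMT libraries. Akt1 was higher in pMT/VitD than in VitD by 0.29 ± 0.10 (adjusted p = 0.0466), 1 of 2 members higher in that comparison, where 21.9% of all genes tested were called and 9.66% were higher. The direction was not kept when libraries were scaled by size alone, at -0.06 (adjusted p = 0.703). The call was lost without pMT/VitD 1, 2 or 4 or VitD 2 or 3, with adjusted p values of 0.0914, 0.111, 0.0586, 0.153 and 0.111. pMT/VitD exceeded Surgery by 0.24 ± 0.11 (adjusted p = 0.196) and pMT by 0.22 ± 0.09 (adjusted p = 0.472). pMT/VitD against pMT had 0 of 10 members and 0% of all genes called, with 1 member (Akt1) at an unadjusted p under 0.05, 0 by DESeq2 and 8 by limma. Of 17201 genes, 1737 had an unadjusted p under 0.05, DESeq2 called 58 and limma called 6617. Without pMT 4 and pMT/VitD 4, Akt1 was higher in pMT/VitD than in pMT by 0.30 ± 0.09 (adjusted p = 0.0309), in a fit that called 18.3% of all genes.

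Akt2, the isoform that carries insulin's effect on glucose uptake in muscle, was at 209.9 and 201.5 CPM in Control and at 170.0 and 172.0 CPM in Surgery. It was at 149.1, 165.4 and 179.3 CPM in VitD. It was at 177.1, 187.4, 198.3 and 147.4 CPM in pMT and at 173.0, 189.2, 192.3 and 231.5 CPM in pMT/VitD. Both Control libraries were above every library of Surgery, VitD and pMT, and below pMT/VitD 4 alone. No comparison of Akt2 passed in the fit of all libraries. The log2 fold change was -0.27 ± 0.16 for Surgery against Control (adjusted p = 0.441), -0.32 ± 0.15 for VitD against Control (adjusted p = 0.192) and 0.26 ± 0.13 for pMT/VitD against VitD (adjusted p = 0.164). Alternative fits called Akt2 in 3 of 16, 2 of 17 and 2 of 19 cases for these comparisons. In Surgery against Control edgeR's exactTest called 5923 of 16316 genes.

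Mtor, the kinase of both mTOR complexes, was at 43.5 and 38.1 CPM in Control and at 36.0 and 33.9 CPM in Surgery. It was at 29.6, 37.3 and 39.3 CPM in VitD. It was at 38.8, 44.2, 47.8 and 34.4 CPM in pMT and at 33.0, 32.4, 35.0 and 49.5 CPM in pMT/VitD. Replicates 1 to 3 of pMT were above replicates 1 to 3 of pMT/VitD, and replicate 4 of each group lay within or above the range of the other. The log2 fold change of pMT/VitD against pMT was -0.14 ± 0.15 (adjusted p = 0.752) with all libraries. Without replicate 4 of both groups, Mtor was lower in pMT/VitD, with a log2 fold change of -0.38 ± 0.11 (adjusted p = 0.0322), 1 of 2 members called where 18.3% of all genes were. Mtor is a long gene, at the 96.7 percentile of relative length, and once the trend with length was also removed it was not called. Removing that trend narrowed its highest over lowest CPM from 1.67 to 1.39.

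The fit also asked whether the effect of pMT differed with and without vitamin D. It called 0 of 10 members and 0% of all genes. No member had an unadjusted p under 0.05, while 888 of 17201 genes did. DESeq2 called 0 members, and limma with sample weights called 6, with 31.5% of all genes. The widest estimates were 0.34 ± 0.26 for Prkag3 and -0.34 ± 0.23 for Prkaa1 on the log2 scale. Without pMT 4 and pMT/VitD 4 these were 0.54 ± 0.23 (adjusted p = 0.207) and -0.52 ± 0.19 (adjusted p = 0.144). In that fit Akt1 stood at 0.35 ± 0.13 (adjusted p = 0.149) and Mtor at -0.39 ± 0.17 (adjusted p = 0.195), so that 0 members and 1.89% of all genes were called. These 4 members had an unadjusted p under 0.05.

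The make-up of the AMPK and Akt families was compared as the share of each isoform in its family's TPM, which does not depend on scaling between libraries. Prkaa2 made up 92.0% and 91.5% of α transcripts in Control, and 87.2% and 86.4% in Surgery. It made up 76.7%, 87.0% and 89.3% in VitD. It made up 88.8%, 90.6%, 91.9% and 89.0% in pMT, and 90.6%, 89.1%, 90.5% and 90.4% in pMT/VitD. The operated libraries without pMT were lower than those with pMT except VitD 3, which lay within their range. The share was 90.1% ± 1.05 (SD, n = 8) with pMT and 85.3% ± 4.94 (SD, n = 5) without, a difference of 4.79 percentage points (exact permutation test over 1287 assignments, two-sided p = 0.00311, adjusted p = 0.0746 over 24 tests of 6 shares in 4 comparisons). Without VitD 1, the lowest library, the difference was 2.64 points (exact permutation p = 0.00808, adjusted p = 0.194), and without VitD 3 it was 5.79 points (exact permutation, adjusted p = 0.0485). None of the 24 passed with all libraries. Shares were also taken from counts per mean relative length, with each library's trend with gene length removed. The share of Prkaa2 then passed (exact permutation, adjusted p = 0.0280), as did that of Prkag2. This setting also replaced TPM by counts. Shares of counts passed in this comparison without the trend removed, so its removal cannot be credited with the change. In TPM without pMT 4 and pMT/VitD 4, the difference for Prkaa2 was 4.92 points (exact permutation, adjusted p = 0.156).

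Prkab2 was 44.2% to 73.7% of β transcripts, with pMT 4 the lowest and VitD 3 the highest. Prkag3 was 50.9% to 65.3% of γ transcripts, Prkag1 was 30.0% to 43.7%, and Prkag2 was 2.76% to 5.84%. Akt2 was 53.9% to 64.9% of the Akt1 and Akt2 sum, so Akt2 led in all 15 libraries. The γ3 share was lowest in VitD 1, the library with the lowest fast fibre markers. For Akt2 the share was 64.5% and 64.3% in Control and 60.9% in both Surgery libraries, and 13 operated libraries against 2 Control libraries gave an exact permutation p of 0.152, where 0.00952 is the smallest possible.

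**Figure D3:**
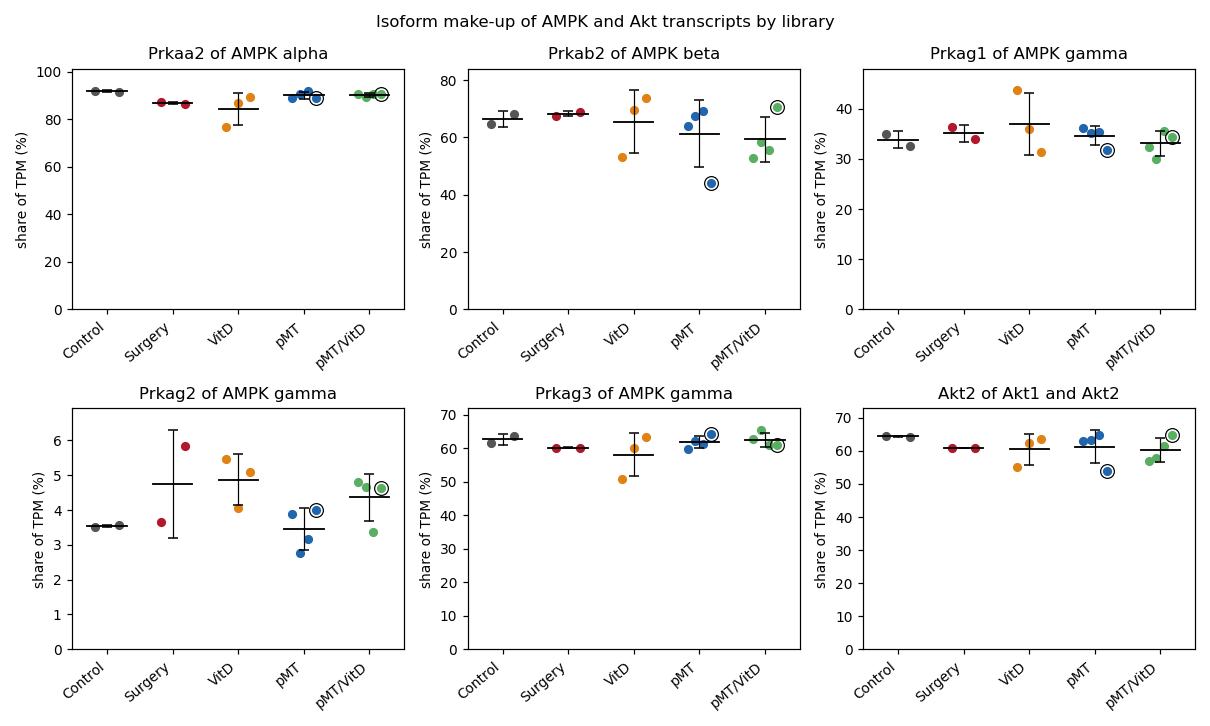
Share of each isoform in the summed TPM of its family, in percent, by group; lines are group means, bars are SD, and circled points are replicate 4 of pMT and of pMT/VitD. Prkaa2 is 88.8% to 91.9% of α transcripts in the 8 libraries given pMT and 76.7% to 89.3% in the 5 of Surgery and VitD.

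The wider pathway was read from 7 lists of its genes, 105 of which were tested. The lists were chosen with earlier results of these data known. Between Surgery and Control, 2 of the 105 were called, both higher, where 1.25% of all genes were higher. That count was near the share of all genes. Both were in the list of AMPK regulators. Camkk1, a kinase that activates AMPK in response to calcium, was at 2.76 and 2.75 CPM in Control, 5.58 and 6.27 CPM in Surgery and 7.39, 5.85 and 4.31 CPM in VitD. It was at 4.03, 3.58, 3.20 and 2.94 CPM in pMT and at 2.46, 2.32, 2.67 and 3.17 CPM in pMT/VitD. Sesn3, a stress-induced sestrin that is linked to AMPK activation and to restraint of mTORC1, was at 16.4 CPM in both Control libraries, 27.6 and 28.1 CPM in Surgery and 28.6 to 30.4 CPM in VitD. It was at 14.2, 17.6, 21.7 and 16.2 CPM in pMT and at 12.4, 13.8, 14.3 and 15.003 CPM in pMT/VitD. The Surgery and VitD libraries of both genes were above all the others, in the opposite direction to Prkab1, again without the share of all genes that separate so.

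Camkk1 rose in Surgery by 1.105 ± 0.23 on the log2 scale (adjusted p = 0.0346) and Sesn3 by 0.76 ± 0.16 (adjusted p = 0.0325). Both calls were lost when any of the 4 libraries was left out. In pMT against Surgery, where 1.55% of all genes were lower and 0.395% were higher, 1 of the 105 was called, Sesn3, which fell by 0.67 ± 0.13 (adjusted p = 0.0203), and Camkk1 stood at -0.79 ± 0.19 (adjusted p = 0.0551). The call of Sesn3 was lost without Surgery 1 or Surgery 2 (adjusted p = 0.238 and 0.226). In pMT/VitD against Surgery Camkk1 fell by 1.16 ± 0.20 (adjusted p = 0.00417) and Sesn3 by 1.01 ± 0.13 (adjusted p = 0.00112), and the call of Camkk1 was lost without Surgery 2 (adjusted p = 0.0763). Both genes kept these directions with scaling by library size alone.

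**Figure D4:**
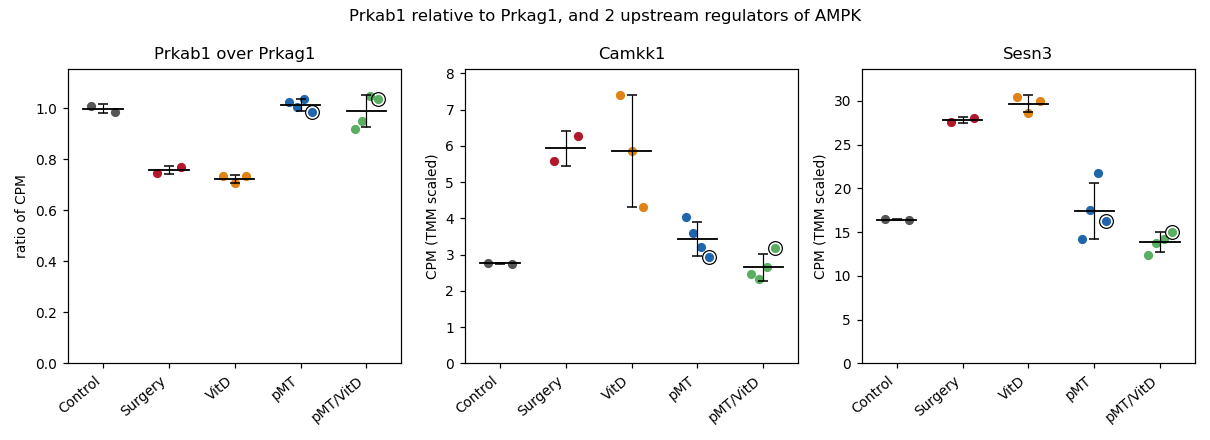
Ratio of Prkab1 to Prkag1 CPM (left) and CPM of the AMPK regulators Camkk1 and Sesn3, by group; lines are group means, bars are SD, and circled points are replicate 4 of pMT and of pMT/VitD. The ratio is at most 0.768 in Surgery and VitD and at least 0.920 elsewhere, while Sesn3 is at least 27.6 CPM in Surgery and VitD and at most 21.7 CPM elsewhere.

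Among 14 AMPK upstream kinases and regulators, 1 rose and 2 fell in pMT/VitD against Surgery, where 2.4% of all genes rose and 5.03% fell. In pMT/VitD against VitD 3 rose and 3 fell, or 0 and 6 with library size alone, where 9.66% of all genes rose and 12.2% fell under TMM. Cab39l, a scaffold of the LKB1 complex that phosphorylates AMPK, rose by 0.54 ± 0.14 against Surgery (adjusted p = 0.0296) and by 0.58 ± 0.12 against VitD (adjusted p = 0.00438). Of 17 AMPK substrates and outputs, 0 were called in pMT against Surgery or pMT/VitD against Surgery, and 2 rose and 0 fell in pMT against VitD, where 2.65% of all genes were higher and 5.45% were lower. One was Slc2a4, the insulin-responsive glucose transporter, at 524.6, 543.8, 570.2 and 524.9 CPM in pMT against 301.4, 363.1 and 397.1 CPM in VitD, higher by 0.61 ± 0.12 (adjusted p = 0.00579). Mlycd, which removes malonyl-CoA and so frees fat oxidation, rose by 0.45 ± 0.12 (adjusted p = 0.0338). In pMT/VitD against VitD 5 of the 17 rose and 0 fell, or 0 and 4 with library size alone, among them Acacb (0.56 ± 0.18) and Mff (0.50 ± 0.11), which AMPK phosphorylates to control malonyl-CoA and mitochondrial fission.

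Of 18 genes upstream of Akt, 3 fell in pMT/VitD against VitD, where 12.2% of all genes fell, or 8 with library size alone, where 33.5% of all genes were called. These were the lipid phosphatase Inpp5d (-0.72 ± 0.17), the growth factor receptor Igf1r (-0.52 ± 0.17) and the PI3K subunit Pik3r3 (-0.44 ± 0.12). Of 8 Akt substrates, the glycogen synthase kinase Gsk3a rose in pMT/VitD against Surgery by 0.48 ± 0.13 (adjusted p = 0.0394) and against VitD by 0.65 ± 0.11 (adjusted p = 0.00190). Akt1s1, an Akt substrate that restrains mTORC1, rose by 0.44 ± 0.10 against VitD. With library size alone neither was called against VitD.

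Among 10 mTOR complex partners, 1 rose and 3 fell in pMT/VitD against VitD, or 0 and 3 with library size alone, where 9.66% of all genes rose and 12.2% fell under TMM. Mapkap1, a core part of mTORC2, was higher by 0.37 ± 0.09, and Prr5l and Prr5, which also bind mTORC2, stood at -0.84 ± 0.25 and -0.66 ± 0.16. Of 22 mTORC1 regulators tested of 25, 7 rose and none fell in that comparison, or 1 and 4 with library size alone. They included Rragd, a GTPase that brings mTORC1 to the lysosome (0.82 ± 0.14), Lamtor2, part of its lysosomal anchor (0.71 ± 0.21), and Nprl3, part of an inhibitor of the Rag GTPases (0.60 ± 0.18). Of 16 mTORC1 outputs, 6 rose and none fell, or 2 and 1 with library size alone, among them Eef2k, which slows translation elongation (0.77 ± 0.14), Maf1, a repressor of RNA polymerase III (0.70 ± 0.12), and the S6 kinase Rps6kb2 (0.64 ± 0.13). Against Surgery, Eef2k, Maf1 and the cap-binding factor Eif4e rose by 0.59, 0.52 and 0.47 in pMT/VitD.

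Over the 7 lists, 24 genes rose and 9 fell in pMT/VitD against VitD, where 9.66% of all genes rose and 12.2% fell. The split turned with scaling, to 3 higher and 28 lower with library size alone. In pMT/VitD against Surgery it was 6 higher and 2 lower, against 0 higher and 14 lower with library size alone, and 0 higher and 2 lower without Surgery 1 or 0 and 1 without Surgery 2. In VitD against Control 3 rose and 9 fell, where 5.48% of all genes rose and 3.2% fell, with 12 higher and 0 lower under library size alone and none called without either Control library. Among the genes named in any comparison, Camkk1, Sesn3, Map3k7, Inpp5d, Pik3r3, Igf1r, Prr5, Prr5l, Telo2, Eef2k, Maf1 and Rragd kept their direction and their call in pMT/VitD against VitD under both scalings. In pMT/VitD against pMT 0 of the 105 were called, 1 by DESeq2, and 11 rose and 19 fell without pMT 4 and pMT/VitD 4, where 18.3% of all genes were called. With the length trend also removed, 4.41% of all genes were called in that comparison.

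Genes whose pattern was most like a member's were found by Pearson's r of log2 CPM over the 15 libraries among 7795 genes, as a description, since all libraries share the differences between groups and in gene length. For Prkab1 they were Dbndd2 (r = 0.964), Orai1 (r = 0.960) and Grtp1 (r = 0.951). For Prkag2 they were Kcnab1 (r = 0.931), Car3 (r = 0.902) and Tmem38b (r = 0.902). For Akt1 they were B3gat3 (r = 0.952), Cpsf4 (r = 0.947) and Ubxn6 (r = 0.929).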

How the data were processed

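RNA of multifidus muscle was measured in 15 libraries of 5 groups, taken from the sample titles. Per the study's methods and processing notes, Trimmomatic 0.38 was used for trimming, HISAT2 2.1.0 for alignment to rn6, SAMtools 1.9 for sorting and StringTie 2.1.3b for quantification of NCBI RefSeq genes. They deposited raw read counts per gene, which were used for every test between groups. The authors also deposited TPM values, used here for levels between genes, isoform shares and markers, and deposited FPKM values, which were not used. Handling of strand and of reads shared by several genes is not given in the sources used here, so overlapping genes and near-identical copies are uncertain.

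Counts were tested in R 4.3.3 with edgeR 4.0.16 (TMM, filterByExpr, robust quasi-likelihood F-test) in 1 fit of all libraries. P-values were adjusted by Benjamini-Hochberg over 17201 genes, and an adjusted p under 0.05 was called. Markers and lists were called in the same fit. Shares were compared by exact permutation with Python 3.11.15. Alternatives used DESeq2 1.42.0, limma 3.58.1 (voom with sample quality weights), edgeR's exactTest, other scalings and filters, a replicate block, removal of a lowess trend with gene length (span 0.4) and libraries left out. On simulated counts for pMT against Surgery with 16910 genes, 68% of 100 genes changed 2-fold and 98% of 100 changed 4-fold were recovered, with 6 false calls. Changes under 2-fold, where all members lay in this comparison, were not simulated, so recovery at those sizes is not known.

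The members, the gene lists and the libraries set aside were chosen with earlier results of these data known. Named pathway genes were the called genes with the largest change, at most 3 per list and comparison. Libraries were not paired by replicate number in the main fit.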

Additional observations from a re-analysis of the deposited data

Results flagged for a closer look

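Of 32 sets of 4 libraries (10 CPM levels and 6 shares in pMT and in pMT/VitD), 6 had 1 library far from the other 3 by Dixon's criterion, where chance alone gives about 1.6. Of these, 4 were replicate 4 of pMT or pMT/VitD. Prkag3 was at 101.8 CPM in pMT 4, where pMT replicates 1 to 3 had 74.2 to 76.9 CPM. Akt1 was at 117.1 CPM in pMT 4, against 96.7 to 99.3 CPM. Akt2 made up 53.9% of the Akt1 and Akt2 sum in pMT 4, against 63.1% to 64.7%. Mtor was at 49.5 CPM in pMT/VitD 4, where pMT/VitD replicates 1 to 3 had 32.4 to 35.0 CPM. Prkaa2 made up 89.1% of α transcripts in pMT/VitD 2, against 90.4% to 90.6%. Prkag2 made up 3.37% of γ transcripts in pMT/VitD 3, against 4.63% to 4.80%.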

How the results depend on the processing

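Members called are given here by comparison, against the counts of the report (1 for any difference, 1 for pMT/VitD against Surgery, 2 for pMT/VitD against VitD, 1 each for pMT against VitD and VitD against Control, 0 otherwise). The cause of these changes was not tested. Limma with sample weights called 9 for any difference, 4 for Surgery against Control, 4 for pMT against Surgery, 3 for pMT/VitD against Surgery, 8 for pMT/VitD against pMT, 4 for pMT/VitD against VitD, 6 for pMT against VitD, 5 for VitD against Control and 6 for the interaction, in fits that called 28.7% to 66.7% of all genes. DESeq2 called 2 for any difference and 1 each for Surgery against Control and pMT against Surgery, where 3708, 993 and 747 of 17201 genes were called. Scaling by library size alone called 2 for any difference, 2 for pMT/VitD against Surgery and 2 for VitD against Control, none of them Prkab1. In these, 3579, 3248 and 2795 of 17201 genes were called. The log2 fold change of Akt1 in pMT/VitD against VitD reversed to -0.057 under that scaling. With only the groups compared in the fit, 5 were called in Surgery against Control, 1 in pMT/VitD against VitD, and 0 in pMT/VitD against Surgery, pMT against VitD and VitD against Control. Of all genes, that setting called 5289 of 16316, 1816 of 16142, 836 of 16317, 485 of 16340 and 96 of 16594 in the same order. In these comparisons exactTest called 5, 1, 1, 1 and 0 members, and 5923, 2886, 1763, 1389 and 2142 of the same genes. Without a filter on low counts, pMT/VitD against VitD had 1, where 3241 of 24728 genes were called. With gene length trends removed, pMT against Surgery had 1, where 507 of 17201 genes were called. Leaving out 1 library gave 0 to 1 for pMT/VitD against Surgery, 1 to 2 for pMT/VitD against VitD, 1 to 2 for pMT against VitD (2 without pMT 4) and 0 to 1 for VitD against Control. Without replicate 4 of pMT and pMT/VitD there were 2 for any difference, 2 for pMT/VitD against pMT and 2 for pMT against VitD, where 5124, 3136 and 2232 of 17182 genes were called. Akt1, Prkaa1 and Prkab1 were then called in pMT/VitD against VitD, where 5499 of 17182 genes were. With the length trend also removed, an alternative chosen after seeing the data, there were 3 for any difference, 2 for pMT/VitD against Surgery, 1 for pMT/VitD against pMT, 2 for pMT against VitD and 2 for VitD against Control. Libraries with the same replicate number did not deviate together from their group means (median correlation 0.036 over 24 pairs, -0.87 to 0.37). The value of -0.87 was that of pMT 4 and pMT/VitD 4. In groups of 2 the deviations mirror each other, so this check cannot exclude pairing. The replicate block left 0 members called in pMT/VitD against Surgery and 1 in pMT/VitD against VitD, where 350 and 2705 of 17201 genes were called. Of the shares of isoforms, 2 passed between rats with and without pMT in counts instead of TPM. Also 2 passed in counts with length trends removed. In TPM, leaving out 1 library gave 0 to 1 (1 without VitD 3). Of 50 group means in CPM, 24 moved by more than 1 SD under scaling by library size. Every member had at least 203 counts in each library, while Control and Surgery rest on 2 libraries each.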
